A study of Mus musculus with 8 samples.

Results

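The 78 mitochondrial ribosomal protein genes of the deposited table were compared between wild-type (WT) and HOIL1 ΔRING1 (HdR) mouse keratinocytes. They are the rows whose symbol is Mrpl or Mrps followed by a digit and whose mean scaled coverage over the 8 libraries was at least 1 aligned base per megabase of the library's scaled total (written aligned bases per Mb). All 78 rows that match the symbol passed that level, none carried a pseudogene suffix, and the table held 19457 genes in all, of which 11870 reached the same level and were tested. By symbol, 49 are Mrpl genes and 29 are Mrps genes. The lowest member, Mrpl47, had a mean of 14.5 aligned bases per Mb, so no member lay near the threshold.

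RNA came from primary keratinocytes, the main epithelial cells of the epidermis, grown in culture and lysed before they became confluent, with 4 WT and 4 HdR libraries. The HdR genotype is an altered HOIL-1 that lacks the first of its RING domains. HOIL-1, encoded by Rbck1, is part of the linear ubiquitin chain assembly complex, which acts in TNF and NF-κB signalling. Strain, age, zygosity and whether the 4 libraries represent different mice or cultures are not given in the sources used here, so p-values measure only the spread between these libraries.

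Mitochondria translate their own small set of messenger RNAs, all of which encode subunits of the respiratory chain and ATP synthase, on ribosomes that differ from those of the cytosol. Every protein of these mitochondrial ribosomes is encoded in the nucleus, made in the cytosol and imported. The large subunit holds the peptidyl transferase centre and the exit tunnel, and the small subunit holds the messenger RNA and the decoding centre. Some of the proteins have a counterpart in bacterial ribosomes and others are specific to mitochondria. Mrps30 and Mrps18a are named for the small subunit but their proteins sit in the large one, and Mrps36 encodes a protein now assigned to the 2-oxoglutarate dehydrogenase complex. With these assignments the members comprised 51 large subunit genes, 26 small subunit genes and Mrps36.

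Sequences upstream of 5 members are shown as description, and no call or fold change rests on them. These members are genes among the largest rises, the one with the largest fall, and risen genes chosen for a motif. The last are those of largest fold whose printed sequence holds a match to an ETS motif or to the NRF1 motif. These are motifs of factors known for nuclear genes of mitochondria. Each sequence is the longest stretch within the 250 bases before the RefSeq transcription start (GRCm38.p6) that holds no exon of any GENCODE vM21 gene. It is read 5′ to 3′ on the gene's strand. Members with fewer than 150 such bases were passed over, among them Mrps11, Mrpl11, Mrps5 and Mrpl18, whose upstream bases overlap annotated exons. Capitals mark matches on either strand to the ETS motif CCGGAAG, the NRF1 motif GCGCANGCG or the YY1 motif AANATGGCG. The positions are chr16:92058086-92058269, plus strand for Mrps6, chr2:28467816-28468065, plus strand for Mrps2, chr11:115403502-115403751, plus strand for Mrpl58, chr11:120484387-120484612, plus strand for Mrpl12 and chr3:87919294-87919505, plus strand for Mrpl24. Those of Mrps6, Mrpl12 and Mrpl24 end 66, 24 and 38 bases before the RefSeq start, because GENCODE places the gene's first base there.
Mrps6: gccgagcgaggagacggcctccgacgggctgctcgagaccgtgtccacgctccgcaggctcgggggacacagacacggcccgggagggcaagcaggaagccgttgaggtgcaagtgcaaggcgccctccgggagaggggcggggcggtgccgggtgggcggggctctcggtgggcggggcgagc
Mrps2: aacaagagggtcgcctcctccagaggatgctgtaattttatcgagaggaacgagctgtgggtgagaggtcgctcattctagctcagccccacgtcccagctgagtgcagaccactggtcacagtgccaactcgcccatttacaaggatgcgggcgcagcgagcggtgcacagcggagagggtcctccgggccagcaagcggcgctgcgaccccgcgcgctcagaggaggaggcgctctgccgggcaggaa
Mrpl58: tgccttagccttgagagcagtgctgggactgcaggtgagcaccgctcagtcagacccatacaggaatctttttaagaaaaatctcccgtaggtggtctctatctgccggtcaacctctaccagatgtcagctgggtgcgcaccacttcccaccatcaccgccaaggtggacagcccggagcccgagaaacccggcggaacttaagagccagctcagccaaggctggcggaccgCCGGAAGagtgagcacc
Mrpl12: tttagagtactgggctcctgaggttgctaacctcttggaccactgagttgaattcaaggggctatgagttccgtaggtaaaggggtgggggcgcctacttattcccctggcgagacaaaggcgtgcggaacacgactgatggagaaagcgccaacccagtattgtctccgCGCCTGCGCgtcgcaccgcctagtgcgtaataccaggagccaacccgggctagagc
Mrpl24: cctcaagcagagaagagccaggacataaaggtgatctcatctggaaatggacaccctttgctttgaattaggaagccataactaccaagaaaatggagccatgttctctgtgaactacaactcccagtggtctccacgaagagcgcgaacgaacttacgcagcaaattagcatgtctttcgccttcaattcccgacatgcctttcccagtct
Mrpl58 holds 1 ETS match, Mrpl12 holds 1 NRF1 match read on the other strand, and the Mrps6, Mrps2 and Mrpl24 sequences hold none of the 3. Mrpl58, a large subunit protein that can release stalled peptides, was called higher (0.21, limma adjusted p = 0.0164), a call lost without WT 2 (0.0606) or HdR 2 (0.0513) and after thinning to the smallest library (0.461).

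A RefSeq window of 250 bases before to 50 bases after the start was found for 69 of the 78 members. CCGGAAG occurred, on either strand, in the windows of 26 of these 69 genes (37.7%), against 21.1% of 9344 tested genes with a window and 9.93% of all 27025 genes with one. GCGCANGCG occurred in 16 members (23.2%), against 15.7% of tested genes and 7.03% of all genes. AANATGGCG occurred in 11 members (15.9%), against 6.3% and 2.76%. No motif contains another. All 3 were therefore more frequent among members than among tested genes or all genes with a window. CCGGAAG was found in 7 of 29 members called higher in HdR, in 1 of 4 called lower and in 18 of 36 not called, so it was not more frequent among those that rose. GCGCANGCG was found in 8 of the 29 called higher, in 0 of the 4 called lower and in 8 of the 36 not called. These are descriptions of letters in a window, and the groups are small.

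WT libraries held 4.78 to 5.43 Gb of aligned bases and HdR libraries 2.31 to 4.31 Gb. All 4 HdR libraries had less coverage than any WT library (mean difference -1.58 Gb, exact permutation test over 70 regroupings, two-sided p = 0.0286, the smallest these groups allow), so depth and genotype cannot be told apart. Rbck1, which carries the altered allele, was lower in every HdR library. It had 84.5, 89.5, 91.3 and 84.7 aligned bases per Mb in WT libraries 1 to 4 and 43.6, 41.1, 45.2 and 44.8 in HdR libraries 1 to 4. The values are sums over the whole gene and cannot show the deleted part. Keratinocyte markers were high in all libraries (summed level 38400 to 41400 in WT and 41200 to 42500 in HdR). Of the 7, 4 were called higher and none lower, with a median log2 fold change of 0.121. Most of them thus moved in the same direction as most mitochondrial ribosomal protein genes described below. Only 2 of the 7 were called higher without WT 1, HdR 1, HdR 3 or HdR 4. Of 7 melanocyte markers 6 were tested and 5 were called lower, and their summed level was 50.3 to 57.7 in WT and 26.2 to 28.6 in HdR. None of the 5 fibroblast markers in the table was tested, and their sum was 0.118 to 0.733 in WT and 0.121 to 3.86 in HdR. The immune marker Ptprc averaged 0.0152 in WT and was listed at 0 in HdR, while Cd68 and Itgam, also on that list, were called lower, and the list summed to 51.9 to 66 in WT and 42.3 to 43.6 in HdR. The 4 endothelial markers were all under the test level, with sums of 0.666 to 1.17 in WT and 1.54 to 2.14 in HdR. The part of these marker shifts in the results below was not tested, and in bulk RNA fewer cells of a type and less RNA per cell cannot be told apart.

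Mitochondrial ribosomal protein genes were more often higher than lower in HdR keratinocytes, by small amounts. Of the 78 members, 31 were called higher, 4 lower and 43 were not called, where a call is a limma adjusted p under 0.05 over all 11870 genes tested. Among all tested genes 21.3% were called higher and 23.9% lower, against 39.7% and 5.13% of the members. The median log2 fold change of the members was 0.089, beside -0.01 over all tested genes, and 58 members had a positive and 20 a negative value. Fold changes here are HdR minus WT on the log2(value + 1) scale. They ran from -0.30 to 0.34, a change of -18.8% to 26.1% in value + 1, and the standard errors were 0.0392 to 0.0887. When the limma test (treat) asked for a fold above 1.2, it called 0 of the 78 members and 7.47% of all tested genes, so no rise or fall was shown to exceed that size. At the threshold without a fold, the scaling of libraries moved the balance: with upper-quartile scaling 37 members were called higher and 3 lower, beside 26.2% and 19.2% of all genes, and 57.7% of all calls were then higher, against 47.1%. With GC and length correction the members' median was 0.134.

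**Figure D1:**
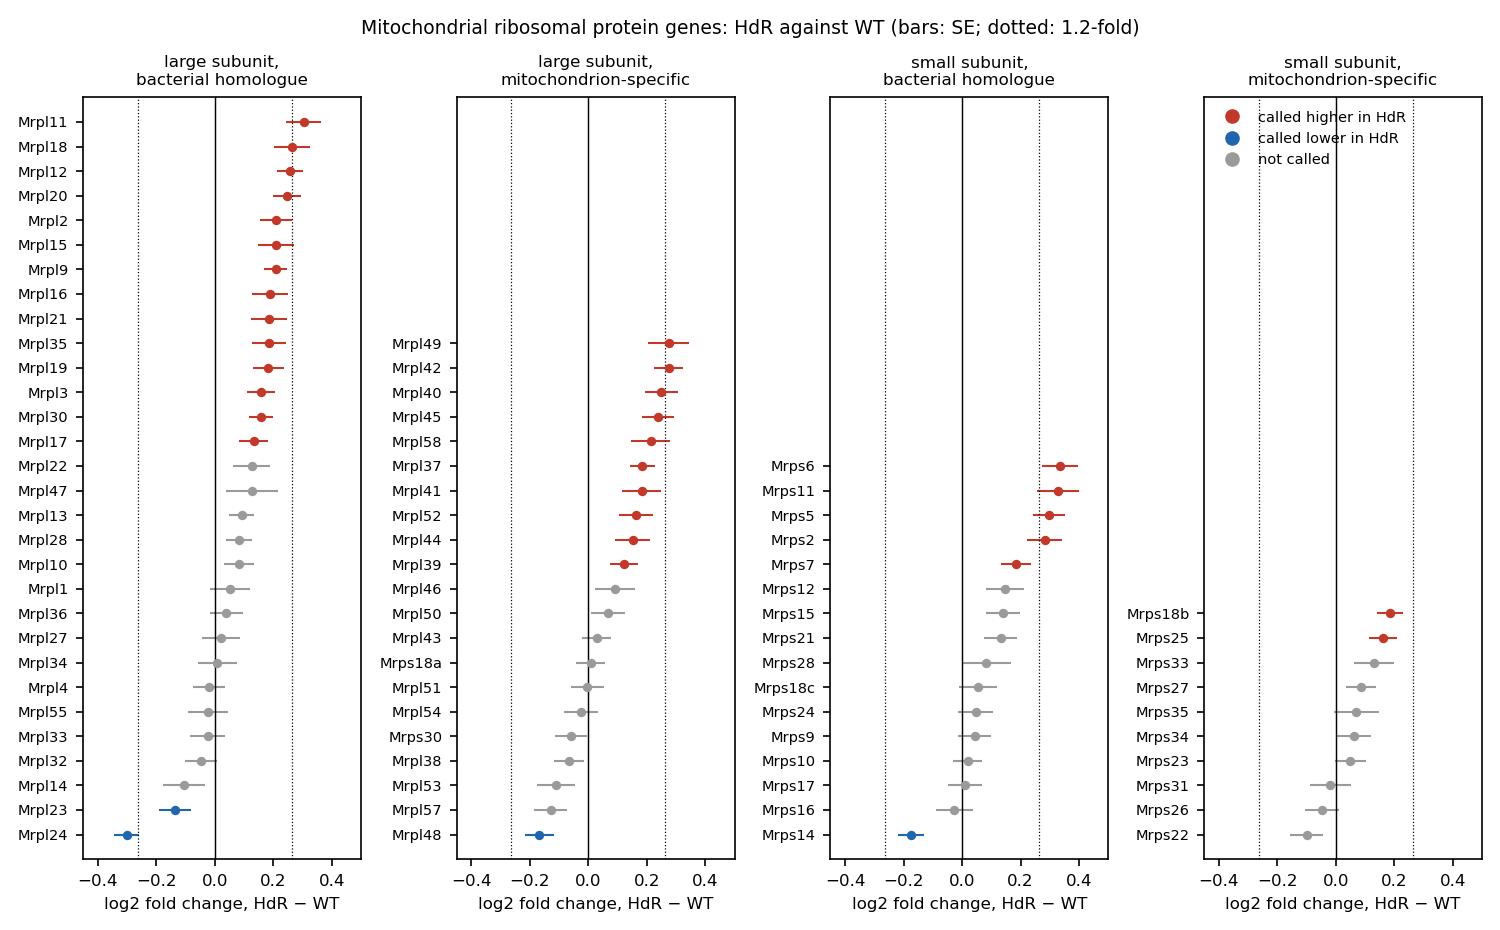
Log2 fold change (HdR minus WT, horizontal axis) of 77 mitochondrial ribosomal protein genes in 4 panels by subunit and ancestry, with SE bars, from 4 libraries per genotype. Mrps36, which is no ribosome subunit, is not drawn. Red genes were called higher, blue genes lower and grey genes were not called, and the dotted lines mark a fold of 1.2 in either direction. Most points lie to the right of 0, and the lowest is Mrpl24.

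The libraries of 1 genotype also differed from each other in these genes. Measured as the median log2 difference of the 78 members from their WT means, HdR libraries 1 to 4 stood at 0.088, 0.123, 0.062 and 0.11. WT libraries 1 to 4 stood at -0.002, -0.059, 0.065 and -0.003. WT 3 was thus as high as HdR 3, and the spread from WT 2 to WT 3 was wider than the median difference between genotypes. In WT 3, 65 of the 78 members lay above the WT mean and in WT 2 only 18 did, while the HdR libraries had 52, 67, 51 and 58. With each library left out in turn, the number called higher ran from 23 (without WT 2) to 32 (without WT 3 or HdR 3), and the number lower from 3 to 6 (6 without WT 2). Summed over the members, scaled coverage was 3231, 3102, 3396 and 3240 aligned bases per Mb in WT and 3456, 3529, 3401 and 3468 in HdR. The groups of sums did not overlap, but WT 3 and HdR 3 were nearly equal.

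**Figure D2:**
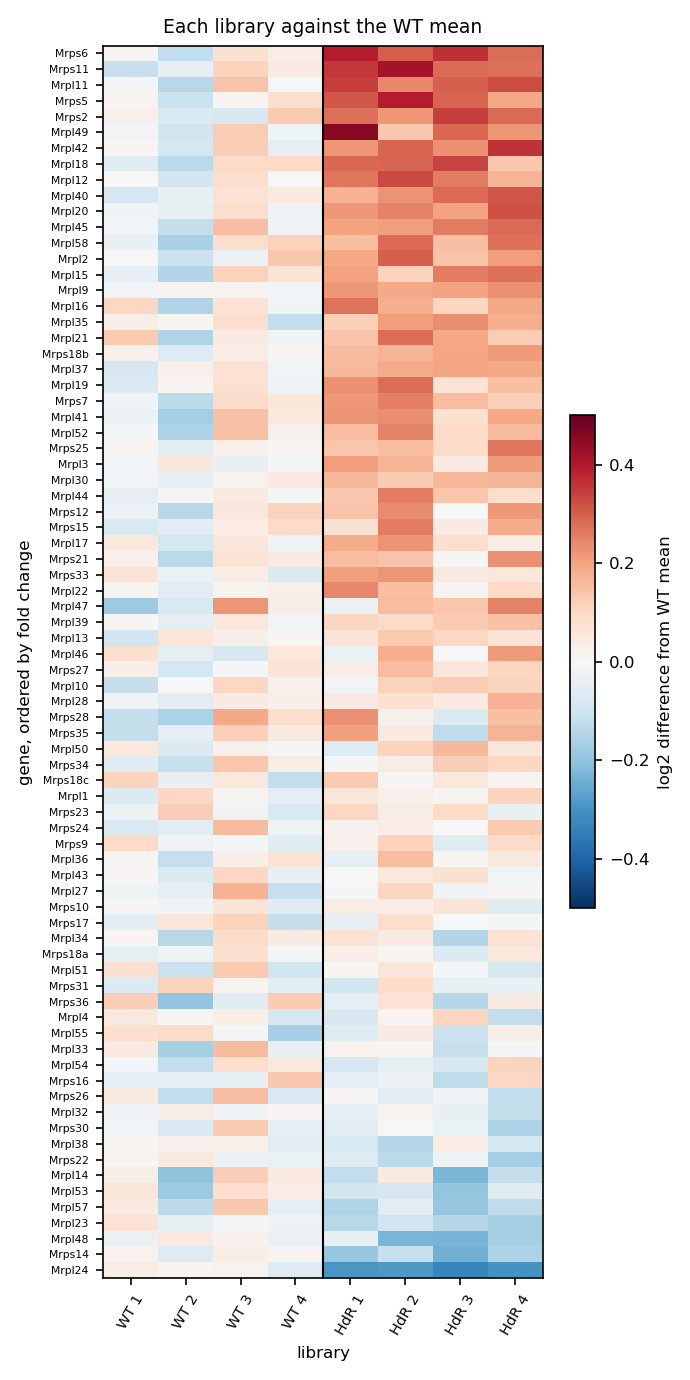
Each row is 1 of the 78 members, ordered by fold change, and each column 1 library. Colour gives the log2 level minus the WT mean of that gene, from blue (lower) to red (higher). The HdR columns are red over the upper rows and blue in the lowest rows, and WT 2 is blue and WT 3 red over many rows.

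In the large subunit, 24 of 51 genes were called higher (16 without WT 2) and 3 lower (5 without WT 2), with a median log2 fold change of 0.122. In the small subunit, 7 of 26 were called higher (26.9%, near the 21.3% of all tested genes) and 1 lower, with a median of 0.076. With a correction for GC content and length, 12 small subunit genes were called higher and the medians were 0.134 (large) and 0.133 (small). Without HdR 3 the small subunit median was 0.116. The 2 subunits were not tested against each other. In summed coverage the ratio of large to small subunit genes was 2.41, 2.4, 2.43 and 2.37 in WT libraries 1 to 4 and 2.39, 2.42, 2.44 and 2.41 in HdR libraries 1 to 4. These ranges overlapped, and the ratio of the subunits' transcripts did not separate the genotypes. Of the 46 members with a bacterial counterpart 19 were called higher and 3 lower (median 0.127), and of the 31 specific to mitochondria 12 were called higher and 1 lower (median 0.07). The 12 became 7 without WT 2, without HdR 2 or after thinning to the smallest library, and 8 without WT 1 or HdR 1, and the 1 lower became 3 without WT 2. Mrps36 was at -0.02 and was not called.

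The largest rise was in Mrps6, a small subunit protein with a bacterial counterpart (gene on GRCm38 chromosome 16, 92058270 to 92112227). It had 20.8, 18.9, 21.8 and 21.2 aligned bases per Mb in WT and 27.4, 25.7, 26.9 and 25.3 in HdR. The log2 fold change was 0.34 ± 0.061 (SE, limma, adjusted p = 0.00031). All 4 HdR libraries lay above all 4 WT libraries. Mrps6 shares 159 exonic bases with Slc5a3, the myo-inositol transporter gene on the same strand, which was at 0.17 and not called (adjusted p = 0.103), and 305 with Gm49711, a predicted gene on that strand without a tested value. Some reads of these genes cannot be told apart. Mrps11, whose product lies in the platform of the small subunit (chromosome 7, 78783119 to 78792989), had 12.5, 13.2, 14.8 and 14.1 in WT and 17.7, 18.5, 16.8 and 16.7 in HdR. Its log2 fold change was 0.33 ± 0.072 (adjusted p = 0.00128), again without overlap.

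The other small subunit genes among the 10 largest rises were Mrps5 and Mrps2, both with bacterial counterparts. Mrps5 (chromosome 2, 127587222 to 127606829) had 36.6, 33.5, 36.6 and 38.3 aligned bases per Mb in WT and 45.1, 47.8, 44.5 and 41.6 in HdR (0.30 ± 0.056, adjusted p = 0.000398). Mrps2 had 30.2, 28.2, 28 and 32.6 in WT and 36.2, 34.7, 38 and 36.4 in HdR (0.28 ± 0.059, adjusted p = 0.000885). Neither gene's groups overlapped. Both genes lie on chromosome 2, as Rbck1 does, at 24.7 Mb (Mrps5) and 124 Mb (Mrps2) from it. The other 2 members on that chromosome were Mrps26, 21.8 Mb from Rbck1 (-0.05, not called), and Mrpl41 (0.18, called higher, adjusted p = 0.038), whose call was lost without WT 1, WT 2, HdR 1, HdR 2 or HdR 4 (0.0748 to 0.135).

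The structural groups that follow are lists of 3 to 6 members each and need not hold every protein of a structure. Ribosome proteins with other symbols, such as Ptcd3 described further below, were not placed in them. Beside the 21.3% higher and 23.9% lower among all tested genes, counts this small describe the genes named and say little about the structure. In the stalk of the large subunit, the mobile arm that recruits elongation factors, 2 of 3 genes rose. Mrpl12, the stalk protein that has also been described as a partner of the mitochondrial RNA polymerase, had the highest level per kb of exon among members. It stood at 80.5 aligned bases per Mb per kb, against a median of 16.5 and a minimum of 2.68 (Mrps35). Exon length joins the exons of all annotated transcripts of a gene, so these levels depend on the annotation. The coverage of Mrpl12, not scaled for length, was 112, 105, 119 and 112 in WT and 135, 141, 134 and 126 in HdR. The log2 fold change was 0.26 ± 0.045 (SE, limma, adjusted p = 0.000185). The HdR libraries all stood above the WT libraries. Mrpl11, at the base of the stalk (chromosome 19, 4962147 to 4966999), had 34, 30.9, 37.8 and 34.2 in WT and 43.7, 40.5, 42.2 and 43.1 in HdR (0.30 ± 0.059, adjusted p = 0.000478), also without overlap. Mrpl10, the stalk protein that carries Mrpl12, was at 0.08 ± 0.051 and was not called (adjusted p = 0.193), with overlapping groups. With GC and length correction it was called (0.0419).

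Among 6 genes of the central protuberance, the crown of the large subunit that faces the small one, 2 rose (33.3%), 1 fell (16.7%) and 3 were not called. Mrpl18 averaged 47.3 ± 3.88 (SD, n = 4) in WT and 57 ± 3.53 in HdR, and Mrpl40 averaged 30 ± 1.56 and 35.8 ± 1.6, at log2 fold changes of 0.26 and 0.25 (limma adjusted p = 0.00194 and 0.00167). Mrpl48, in the same structure, fell. Its libraries had 62.4, 65.9, 64.7 and 62.3 in WT and 62.2, 54.3, 54.1 and 56.7 in HdR (-0.17 ± 0.05, adjusted p = 0.0112). HdR 1 was just under the lowest WT library and the other HdR libraries were lower. Mrpl18 shares 141 exonic bases with Tcp1 (called higher, 0.14) and Mrpl48 shares 708 with Rab6a (called lower, -0.20), each on the other strand. The part of those genes' reads in these differences was not tested. Mrpl27, Mrpl38 and Mrpl46 were at 0.02, -0.07 and 0.09.

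The 6 genes listed for the exit tunnel, through which the new protein leaves, were split. Mrpl24, one of these (chromosome 3, 87919506 to 87923672), had the largest fall of all members. It had 69.1, 67.7, 68.1 and 64.4 aligned bases per Mb in WT and 54.9, 55, 53.5 and 54.5 in HdR. The log2 fold change was -0.30 ± 0.042 (SE, limma, adjusted p = 2.3e-05). The HdR libraries were tightly grouped and all below WT. Mrpl24 shares 594 exonic bases, 26.3% of its exon length, with Rrnad1 on the other strand, which was also called lower (-0.19, adjusted p = 0.0184). The strand setting of the counting is not given in the sources used here, so reads of such pairs cannot be told apart.

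Mrpl45, which tethers the ribosome to the inner membrane beside the tunnel, rose. It averaged 49.5 ± 3.96 (SD, n = 4) in WT and 58.5 ± 1.57 in HdR (0.24 ± 0.054, SE, limma adjusted p = 0.00174). Mrpl17 was called higher (0.13, adjusted p = 0.0377), but its groups overlapped and the call was lost without WT 2, WT 4, HdR 1 or HdR 2 and in 4 other alternatives (adjusted p 0.0578 to 0.128 over these 8). Mrpl23 was called lower (-0.14, adjusted p = 0.0497), at the edge of the threshold, and lost the call when any 1 of the 8 libraries was left out and in 7 other alternatives (adjusted p 0.0565 to 0.159). Mrpl22 and Mrpl47 were at 0.13 each and were not called, though Mrpl22 was with upper-quartile scaling (0.0432). The tunnel genes thus held 2 of the 4 falls among the members.

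The 4 genes listed for the head of the small subunit had 1 rise and 1 fall, 25% each, close to the shares over all tested genes. Mrps7 averaged 66.8 ± 4.57 (SD, n = 4) in WT and 75.9 ± 3.22 in HdR (0.18 ± 0.051, SE, limma adjusted p = 0.00779). Mrps14, a neighbour in the head, had 58.5, 55.2, 59.2 and 58.3 in WT and 50.6, 53.3, 48.8 and 51.7 in HdR (-0.17 ± 0.046, adjusted p = 0.00504), with no overlap. Mrps9 and Mrps10 were at 0.04 and 0.02 and were not called. Subunits that sit together in the ribosome therefore did not all differ in the same direction.

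**Figure D3:**
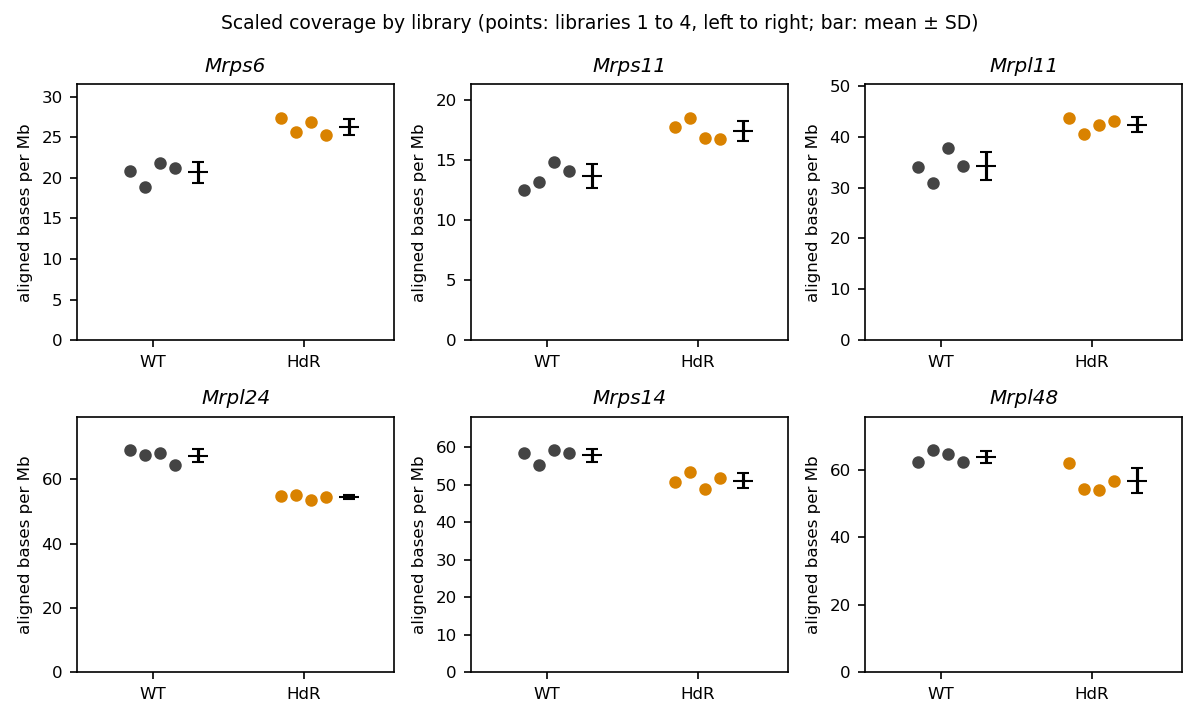
Scaled coverage in aligned bases per Mb (vertical axis, from 0) of 3 genes that rose (Mrps6, Mrps11, Mrpl11) and 3 that fell (Mrpl24, Mrps14, Mrpl48). Each point is 1 library, with WT in grey, HdR in orange and the mean ± SD beside them. The groups do not overlap in any of the 6 genes, and the closest are the Mrpl48 values of 62.3 (WT 4) and 62.2 (HdR 1).

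The remaining genes among the 10 largest rises encode mitochondrion-specific proteins of the large subunit. Mrpl49 averaged 25.7 ± 1.72 (SD, n = 4) in WT and 31.3 ± 3.07 in HdR, and Mrpl42 averaged 72.5 ± 4.73 and 87.8 ± 4.15, at log2 fold changes of 0.28 and 0.27 (limma adjusted p = 0.00415 and 0.000293). In Mrpl49 the rise was uneven, with 35.5 in HdR 1 and 28.3 in HdR 2 against 28.1 in WT 3. The other genes that rose without overlap between the groups included Mrpl20, at 0.25 (adjusted p = 0.000569), and Mrpl9, at 0.21 (0.00039), both of the large subunit with bacterial counterparts.

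Not all 31 rises were equally stable. In the 20 alternatives other than the test against a fold of 1.2, 22 of them were called each time. The 9 that lost their call at least once were all of the large subunit: Mrpl16, Mrpl17, Mrpl21, Mrpl35, Mrpl39, Mrpl41, Mrpl44, Mrpl52 and Mrpl58. Mrpl39 was the nearest to the threshold (0.12, limma adjusted p = 0.0484) and lost its call without any library but WT 3 (0.0624 to 0.114). Mrpl52 lost it without WT 1, WT 2, HdR 1, HdR 2 or HdR 4 (0.0577 to 0.103). Leaving out WT 2 ended the call of every one of the 9 but Mrpl35 (0.0606 to 0.135).

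Over all members, the values of HdR lay entirely above WT in 26 genes and entirely below in 4, where 19.9% and 21.3% of all tested genes did so. By size in either direction, 34 members differed by at most 0.1 in log2, 27 by more than 0.1 and at most 0.2, and 17 by more than 0.2. Whether the differences are graded or split into groups was not tested. The median absolute log2 fold change was 0.189 over the called members and 0.286 over all called genes.

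Across the 78 members the fold change had almost no linear relation to exon length, GC content or level. The correlation across genes was -0.05 with log2 exon length, 0.05 with GC content and 0.07 with the log2 level per kb (Pearson, n = 78 genes that share the same 8 libraries). These values compare members with each other only. Correction for GC content and length over all genes moved the members' median from 0.089 to 0.134 and the number called higher from 31 to 39. The members' median exon length was 2394 bases, shorter than the 4426 bases over all tested genes, and the median GC content was 49.8% in both. The members lay on 17 chromosomes.

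Reads of neighbouring genes touch some calls. Mrpl44, an RNA-binding protein of the large subunit, was called higher (0.15 ± 0.059, SE, limma adjusted p = 0.047) and shares 126 exonic bases with Wdfy1 on the other strand. Wdfy1, an adaptor of Toll-like receptor signalling, rose and averaged 8.69 in WT and 45.6 in HdR (log2 fold change 2.28). Mrpl44 had 20.9, 21.7, 22.3 and 21.5 in WT and 23.8, 26, 23.9 and 23 in HdR. The groups did not overlap, and the part of the Wdfy1 reads in that difference was not tested. The Mrpl44 call was lost without any 1 of the libraries WT 1, WT 2, WT 4, HdR 1, HdR 2 or HdR 3 (0.0716 to 0.141). Mrps25, called higher at 0.16, shares 69.8% of its exon length with Nr2c2 on the other strand, which was at -0.07 and not called. Mrpl19, called higher at 0.18, shares 36% with Gcfc2, which was also called higher (0.31) at a low level of 7.82 in WT and 9.94 in HdR.

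Ribosome proteins of mitochondria that carry other symbols were looked at beside the members. Of the 5 found, 2 were called higher and none lower (background as above). Ptcd3, at the entry of messenger RNA into the small subunit, had 48.9, 46, 44.2 and 49.9 aligned bases per Mb in WT and 58.4, 60.1, 64.5 and 60.4 in HdR (log2 fold change 0.36 ± 0.051, SE, limma, adjusted p = 2.56e-05), a larger value than any member's. Aurkaip1 was at 0.16 (adjusted p = 0.0286), and its call was lost without WT 1, WT 2, WT 4, HdR 2, HdR 3 or HdR 4 and with no filter (0.0535 to 0.083). Dap3 and Gadd45gip1 were at 0.01 and 0.07 and were not called.

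Of 16 tested mitochondrial translation factors and messenger RNA partners, 5 were called higher (31.2%) and 1 lower (6.25%), with a median log2 fold change of 0.071. Among all tested genes these shares were 21.3% and 23.9%. Tufm, the elongation factor that brings tRNA to the ribosome, had 103, 93.8, 105 and 101 aligned bases per Mb in WT and 131, 130, 129 and 123 in HdR (0.35 ± 0.042, SE, limma adjusted p = 5.27e-06). Lrpprc and Slirp, partners that stabilise mitochondrial messenger RNA, rose together by 0.28 and 0.24 (adjusted p = 4.04e-05 and 0.00282). Gfm2, which recycles ribosomes after termination, fell and averaged 52.9 ± 3.88 (SD, n = 4) in WT and 44.2 ± 3.23 in HdR (-0.26, adjusted p = 0.00257). The groups did not overlap in any of these 4 genes.

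Of 26 ribosome assembly factors 4 were called higher (15.4%) and 2 lower (7.69%), both under the 21.3% and 23.9% of all tested genes, with a median of 0.057. With GC and length correction 8 were higher and 0 lower. The higher count was 2 without HdR 3, the lower count was 0 without HdR 4, 1 without WT 1, WT 2, WT 3, HdR 2 or HdR 3 and 3 without WT 4, and the median was 0.025 without HdR 2. Trub2, a pseudouridine synthase, and the GTPase gene Noa1 were at 0.29 and 0.19 (limma adjusted p = 0.00302 and 0.0141). These 2 calls were lost after thinning to the smallest library (Trub2, 0.0911) or without HdR 2 (Noa1, 0.0541). The RNA helicase gene Dhx30 was at 0.14 (0.024), with the call lost without WT 3, HdR 2 or HdR 3 and in 3 other alternatives. Rpusd3 was at -0.32 (0.0234), with the call lost without WT 3, HdR 2, HdR 3 or HdR 4 and in 4 other alternatives. None of 10 genes of mitochondrial transcription and replication was called, with a median of 0.051. At an unadjusted p under 0.05 only Polrmt, the mitochondrial RNA polymerase gene, stood out (0.14, unadjusted p = 0.0322, adjusted p = 0.0671), and limma-voom with quality weights called it (0.0142), as did leaving out WT 3 (0.0189). Transcripts encoded by mitochondrial DNA were not analysed here. Of 13 such messenger RNAs looked for, 0 were in the deposited table under the symbols searched.

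Among 8 tested regulators of mitochondrial biogenesis only Nrf1 was called (12.5% higher, against 21.3% of all tested genes). Nrf1, the factor that binds the NRF1 motif searched above, had 18.4, 18.8, 19.3 and 20.2 aligned bases per Mb in WT and 20.7, 24.3, 20.7 and 24.1 in HdR (log2 fold change 0.21 ± 0.069, SE, limma adjusted p = 0.0188). The call was lost without WT 1, HdR 2 or HdR 4 (0.0577 to 0.0651). The orphan receptor gene Esrra was at 0.11 (0.0539), Myc at 0.07 (0.149) and Gabpa, which encodes an ETS factor, at -0.06 (0.253). Esrra was called without WT 3 (0.0287) and Myc without WT 4 (0.0368), and both were called with upper-quartile scaling (0.0119 and 0.0363). Of 17 mitochondrial tRNA synthetase genes 1 was called higher (5.88%) and 5 lower (29.4%), with a median of -0.001 (0.038 with upper-quartile scaling). The share called lower was near the 23.9% of all tested genes, and the share called higher was under their 21.3%. The lower count was 3 without WT 4, HdR 2, HdR 3 or HdR 4. Iars2, for isoleucine, had 102, 99.9, 99.1 and 102 in WT and 78.2, 76, 76.4 and 79.5 in HdR (-0.38 ± 0.038, adjusted p = 7.05e-07). Vars2 and Rars2 were called lower at -0.19 and -0.15, and Pars2 higher at 0.34 from a low level of 3.67 ± 0.393 (SD, n = 4). The Rars2 call was lost without WT 2, WT 4 or HdR 3 (0.0522 to 0.0616) and with upper-quartile scaling (0.0879), and the Pars2 call after thinning (0.197). Over these 6 lists of other genes, 82 were tested, 13 called higher (15.9%) and 8 lower (9.76%). Both shares were under the 21.3% and 23.9% of all tested genes. The number lower was 5 without HdR 2, 5 without HdR 3 and 4 without HdR 4. With upper-quartile scaling 22 of these genes were called higher and 5 lower.

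Cytosolic ribosomal protein genes and nuclear genes of the respiratory chain, groups near in function, were more often called lower than higher. Of 79 tested cytosolic ribosomal protein genes 4 were called higher (5.06%) and 41 lower (51.9%), against 21.3% and 23.9% of all tested genes, with a median log2 fold change of -0.101. The higher count was 2 without WT 1, WT 2, HdR 2 or HdR 4. Of 77 respiratory chain and ATP synthase subunits 7 were called higher (9.09%) and 23 lower (29.9%, near the 23.9% of all tested genes), with a median of -0.045. The higher count was 3 without WT 1 or HdR 1 and 4 without WT 2, HdR 2 or HdR 4, and the median was -0.074 without WT 2 and -0.008 without WT 3. The members' counts were 31 and 4 with a median of 0.089. With upper-quartile scaling 22 cytosolic genes were called lower and 4 higher, and 14 respiratory genes lower and 11 higher, with medians of -0.061 and -0.005. With GC and length correction the medians were -0.056 and -0.002, with 17 respiratory genes higher and 20 lower. Cytosolic ribosomal protein genes have many processed pseudogenes, and how shared reads were assigned is not given in the sources used here. The 3 groups were measured in the same libraries, and the differences between them were not tested.

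**Figure D4:**
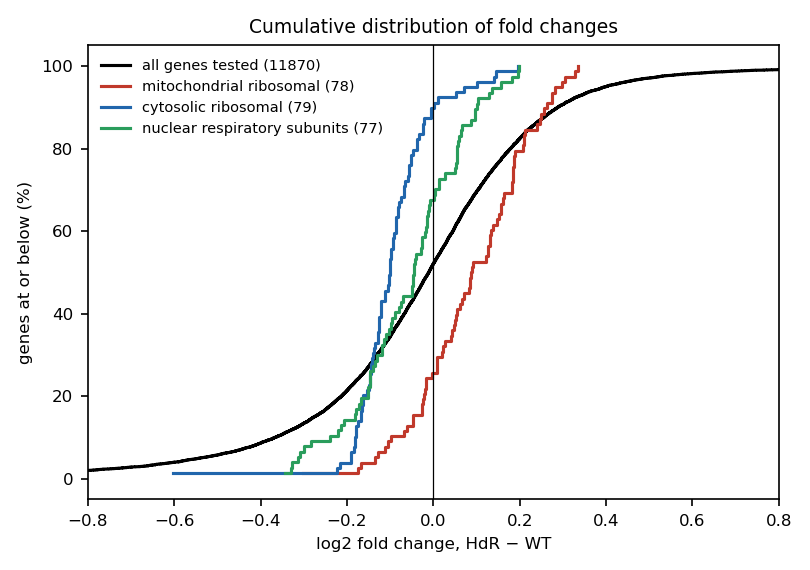
Cumulative share of genes (vertical axis, percent) at or below a log2 fold change (HdR minus WT, horizontal axis, shown from -0.8 to 0.8) for all 11870 tested genes, 78 mitochondrial ribosomal, 79 cytosolic ribosomal and 77 nuclear respiratory genes. The curve of the mitochondrial ribosomal genes crosses its midpoint at 0.089, to the right of the other curves, and the cytosolic ribosomal curve crosses at -0.101.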

How the data were processed

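According to the labels' protocols, the plates were extracted for total RNA (RNeasy mini), followed by NEBNext Ultra II library preparation and Illumina sequencing. The submitters' processing notes name the build GRCm38. The aligner, counter, annotation and strand setting are not given in the sources used here. The authors deposited 1 table of coverage signal, in whole numbers of aligned bases summed over each gene, without scaling for depth or length. That unit was read from the values, whose commonest non-zero value was 302, as if a read pair added 2 reads of 151 bases. Coverage is not a count of molecules, so no counting interval is given.

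Scaling to aligned bases per Mb of the library's total used trimmed-mean (TMM) factors (trims of 30% of log ratios and 5% of levels at each end). Genes with a mean of at least 1 were tested on log2(value + 1) with limma 3.58.1 (lmFit, eBayes with trend and robust, R 4.3.3, statmod 1.5.0), two-sided, and p-values were adjusted over 11870 genes by Benjamini and Hochberg. The steps were run on simulated data in which few genes changed, equally often up and down. That run does not check the scaling for these data, where many genes were called. Positions, exon lengths and GC content came from GENCODE vM21 (GRCm38), which matched 19158 of 19457 symbols and all 78 members. Python 3.11.15 with matplotlib 3.10.9 drew the figures.

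The members and the gene lists were chosen with earlier results of these data known. Genes named are Rbck1, the 10 members called higher with the largest fold change, the 4 called lower, those with extreme levels, the stalk, central protuberance, exit tunnel and small subunit head lists, and up to 4 genes of smallest p from each other list. Other members and the genes that neighbour or overlap members were named after their values were seen. Promoter stretches were checked against GENCODE vM21 exons. The alternatives were 3 other scalings, a filter of 5 aligned bases per Mb in at least 4 libraries and none at all, pseudocounts of 0.1 and 5, limma-voom with sample weights, a test asking for a fold above 1.2, a block for replicate number, thinning of all libraries to the depth of the shallowest, correction for GC content and length with and without the block, and each library left out.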

Additional observations from a re-analysis of the deposited data

Results flagged for a closer look

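Of 106 groups of 4 libraries checked (51 named genes, the members' summed level and the large to small subunit ratio, in each genotype), 3 held a library far from the other 3, where chance gives about 1 in 20. Mrpl10 was at 65 aligned bases per Mb in HdR 1, below the next lowest HdR library at 70.9. Tufm was at 123 in HdR 4, the lowest of that group, against 129 in the nearest. Tfam, which encodes the mitochondrial DNA packaging factor, was at 33.3 in HdR 4 against 35.6 in the nearest.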

How the results depend on the processing

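In 20 of the 21 alternatives (all but the test against a fold of 1.2), 22 of the 31 members called higher and 3 of the 4 called lower kept their call each time, Mrpl23 being the exception among the lower genes, and in no alternative was a called member's direction turned. When a fold above 1.2 was asked for, 344 genes in the whole table were higher and 543 lower by limma, and 0 members, 0 large subunit, 0 small subunit and 0 other mitochondrial translation genes in either direction, since that test asks for a larger change. With upper-quartile scaling the members' median log2 fold change was 0.128, and 22 other mitochondrial translation genes were called higher and 5 lower. With library totals only, 5 of those were lower. With GC and length correction the median was 0.134, 12 small subunit genes were higher and 23 other genes were higher. The cause of these shifts was not tested.

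Libraries with the same replicate number did not deviate together (correlations of 0.028, -0.068, -0.223 and 0.02 across genes), so the numbers do not pair them. With the replicate number as a block, 25 members were called higher and 3 lower at a median of 0.089, and 2240 genes higher and 2524 lower over the table. The block with GC and length correction gave a median of 0.134, 11 small subunit genes higher and 3 other genes lower. Mrpl38, not called and at a log2 fold change of -0.067 in the main fit, turned to 0.007. It had the same value with the correction alone.

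With 1 library left out in turn, the members called higher ran from 23 to 32 and lower from 3 to 6, the large subunit genes lower from 2 to 5 (5 without WT 2), the other mitochondrial translation genes lower from 4 to 7, and the members' median from 0.08 to 0.119. Among the genes named by the rule, the sign of 3 near 0 turned: Mrpl27 (range -0.015 to 0.081) to -0.015 without WT 4 and -0.005 without HdR 2, Mrps10 (range -0.001 to 0.046) to -0.001 without WT 4, and Dap3 to between -0.007 and -0.001 without WT 1, WT 4, HdR 1 or HdR 4. Mrps36 turned to 0.024 without WT 1 or HdR 3 and to 0.027 without WT 4, and over all members 55 to 62 had a positive value. Depth limits precision in HdR 4, the shallowest library at 2.31 Gb. Thinned to its size, 25 members were called higher and 3 lower.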

Other observations

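Many mitochondrial ribosomal protein genes start near the start of a gene on the other strand, with or without overlap. In GENCODE vM21, 33 of the 78 members (42.3%) had a protein-coding gene on the other strand whose start lay within 1000 bases of their own, against 16.9% of 11351 tested protein-coding genes. Mrpl46 and Mrps11 form such a pair with both genes in the family, their starts 412 bases apart and overlapping by 173 exonic bases. Mrps11 was called higher at 0.33 and Mrpl46 was at 0.09 and was not called (limma adjusted p = 0.305), and the difference between the 2 genes was not tested. Mrpl36 starts 29 bases from Ndufs6, a complex I subunit gene, and both were near 0 (0.04 and -0.05, not called).

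Members and their opposite neighbours did not always differ in the same direction. Mrpl49 was called higher at 0.28 and Fau, which encodes a cytosolic ribosomal protein and starts 59 bases away, was called lower at -0.14. Mrpl2 was called higher at 0.21 and Klc4, a kinesin light chain gene 207 bases away, was called lower at -0.42. In contrast, Mrpl18 and Tcp1, which encodes a chaperonin subunit, were both called higher (0.26 and 0.14), with starts 644 bases apart. Mrpl48 and Rab6a, a Golgi transport GTPase gene 891 bases away, were both called lower (-0.17 and -0.20). Mrpl18 shares 141 exonic bases with Tcp1, and Mrpl48 shares 708 with Rab6a, so some reads of these genes cannot be told apart. Tcp1 averaged 435 in WT and 479 in HdR, and Rab6a 179 and 155, above the levels of their partners. All pairs named here were chosen after their values were seen.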
